A study of Homo sapiens with 40 samples.

Results

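Transcription cyclins and their kinases are 8 genes, CCNT1, CCNT2, CCNL1, CCNL2, CCNK, CDK9, CDK12 and CDK13, chosen from a list by name. Their events were all exon rows under their Ensembl identifiers in 5 tables, and the intron rows lying within the extent of those exon rows on the same strand in 2 tables. The genes had 24 events, 19 exon events and 5 introns, of 18867 in the series, and 6 of the 8 genes had any. CDK9 and CDK13 had no exon row, so no intron could be placed in them either. The list was drawn up with results of these tables in view, among them the CCNT1 exon on RASL-seq of H1106Y cells. The calls below are therefore descriptions of these genes and no independent evidence about them.

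The cells were of the HEK293 Flp-in T-REx line, human cells of embryonic kidney origin with a site for inducible transgenes, and all carried an integrated α-amanitin-resistant Rpb1, the large subunit of RNA polymerase II. The transgene was R749H, H1106Y, E1126G or wild type (WT), where R749H and H1106Y are slow polymerases and E1126G is a fast one. Every group, WT included, received doxycycline (12 to 16 h) to induce the transgene, followed by 42 h in α-amanitin to silence the cells' own polymerase. RNA-seq had 2 libraries each of R749H, E1126G and WT, and RASL-seq, in which pairs of probes are ligated across selected junctions and counted, had 3 each of R749H, H1106Y, E1126G and WT. The sources used here do not say whether a line was 1 clone or whether libraries came from separate cultures. The question was how splicing responds to the speed of the polymerase.

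Cyclin T1 and cyclin T2 pair with CDK9 to form P-TEFb, the kinase that releases paused polymerase into elongation. Cyclin K pairs with CDK12 or CDK13, which phosphorylate the polymerase tail within genes, and the cyclins L1 and L2 pair with CDK11 kinases, carry a domain rich in arginine and serine, and take part in splicing. The genes thus encode parts of the machinery that drives the polymerase, and their own transcripts are spliced alternatively.

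The authors' deposited tables give 1 pooled value for a mutant and 1 for WT, so no value per library, spread or depth can be shown. They hold ratios and no levels, so neither the genotype nor the cell type can be checked in them. Inclusion is the deposited ratio of inclusion to exclusion written as a percentage, for an exon within the span between its flanking exons. How reads were counted is not stated, so inclusion is not known to be the share of transcripts that carry the exon. Each change is the log2 of the mutant ratio of inclusion to exclusion over the WT ratio. An event was called at an adjusted p under 0.05, after Benjamini-Hochberg adjustment of the authors' p-values across a whole table. Coordinates are GRCh37 and 1-based.

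In slow R749H cells the exons of these genes that were called in RNA-seq had higher inclusion without exception: 10 of 18 events were called, and 10 of these were higher. Of all 14358 exon events compared there, 15.1% were called, 7.07% with higher and 8.04% with lower inclusion. The called events lay in CCNT1, CCNL1, CCNL2 and CDK12. They are not independent, because CCNL1 rows of the same cassette share the reads that skip it. Each called CCNL2 exon was scored over a wide and a narrower span. The counts and medians given here include such overlapping rows. The CCNT2 exon, which was called lower in R749H on RASL-seq, had no row in R749H RNA-seq. In fast E1126G cells 2 of 16 events were called, both lower and both in CCNL2, against 6.48% of all events called, 2.2% higher and 4.27% lower. The median log2 change of the 18 events was 1.61 in R749H, against -0.0048 over all events, and that of the 16 events was 0.23 in E1126G, against -0.084 over all events. The difference between the mutants, which share the WT libraries, was not tested.

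On RASL-seq 7 of 8 rows were called in R749H (6 higher, 1 lower), 8 of 8 in H1106Y (7 higher, 1 lower) and 4 of 8 in E1126G (1 higher, 3 lower). Calls were frequent in these tables, at 44.1% of all rows in R749H, 61.9% in H1106Y and 47.5% in E1126G. Called higher were 24% of all rows in R749H, 23.7% in H1106Y and 13.9% in E1126G, and called lower 20.1%, 38.2% and 33.6% in that order. The 8 rows hold 5 distinct measurements, because exons that share a junction were given the same values. Counted once each, 4 of 5 were called in R749H, 5 of 5 in H1106Y and 3 of 5 in E1126G. The median log2 change of the 8 rows was 1.30 in R749H, 3.01 in H1106Y and -0.30 in E1126G, against 0.048, -0.33 and -0.37 over all rows of those tables.

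**Figure D1:**
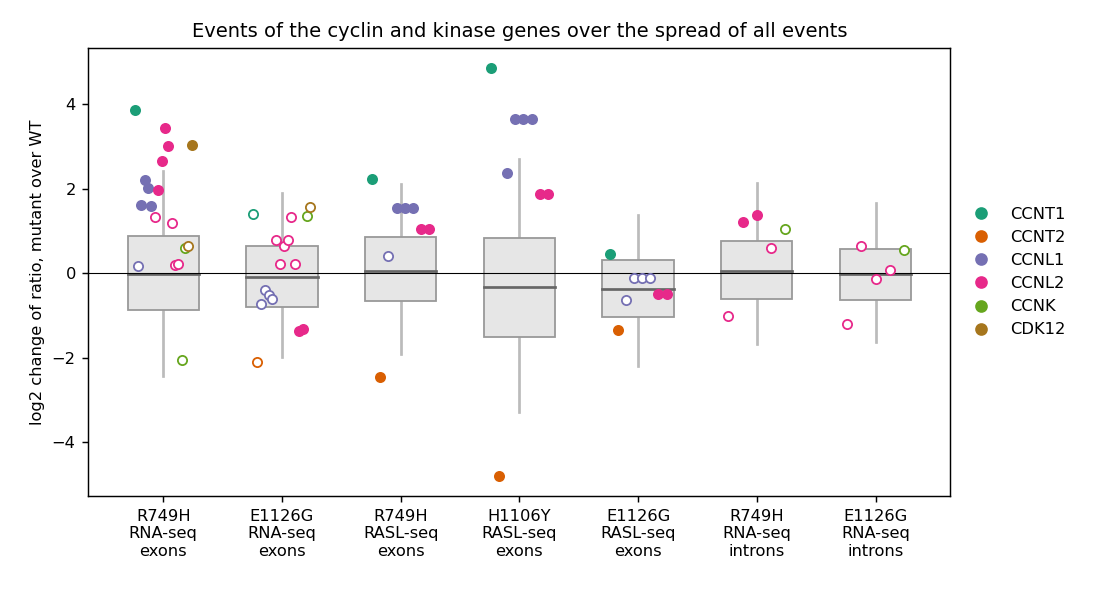
Log2 change of the ratio of inclusion to exclusion, mutant over WT (vertical axis), for each event of the 6 genes in the 7 comparisons. Filled points passed an adjusted p under 0.05 and open points did not; boxes span the quartiles of all events of a table, with the median as a line and whiskers at the 5th and 95th percentiles. In R749H RNA-seq the 10 filled points all lie above 0, while in E1126G RNA-seq the 2 filled points lie below 0.

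CCNT1 encodes cyclin T1. Its single event was a 164-nt exon on the minus strand of chromosome 12 (49089782 to 49089945), which sits 1975 nt after the exon before it and 169 nt ahead of the next. The length is not a multiple of 3, so the exon shifts the reading frame if it lies in coding sequence. Inclusion in RNA-seq was 98.6% in R749H and 92.9% in E1126G, against 83.0% in WT, in the authors' deposited table. The exon was called in R749H (log2 change 3.87, adjusted p = 1.5e-04) and did not pass in E1126G (log2 change 1.41, adjusted p = 0.28) in the authors' deposited table.

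On RASL-seq the same CCNT1 exon was mostly skipped in WT, and it was called higher in each mutant, in E1126G by a small margin. Inclusion was 50.0% in R749H, 86.0% in H1106Y and 22.6% in E1126G, against 17.5% in WT, in the authors' deposited table. The log2 changes were 2.23 in R749H (adjusted p = 8.3e-07) and 0.46 in E1126G (adjusted p = 0.044) in the authors' deposited table. The H1106Y change, a log2 of 4.86 and 68.5 percentage points, ranked 1 of 2070 from the top of its table and is among the values that led to the choice of these genes. Both slow forms thus stood well above WT on this exon, and E1126G stood close to WT.

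CCNT2 encodes cyclin T2, and its exon went the other way. The 87-nt exon on the plus strand of chromosome 2 (135703459 to 135703545) has a length that is a multiple of 3 and follows an intron of 3214 nt. On RASL-seq its inclusion was 2.62% in R749H, 0.523% in H1106Y and 5.47% in E1126G, against 12.8% in WT, in the authors' deposited table. It fell in R749H (log2 change -2.45, adjusted p = 6.0e-10) and in E1126G (log2 change -1.34, adjusted p = 2.1e-04) in the authors' deposited table. In H1106Y the log2 change was -4.80 in the authors' deposited table. This was the single row of the 8 genes called lower in all 3 RASL-seq comparisons.

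In RNA-seq the CCNT2 exon had a row in E1126G and none in R749H. Inclusion was 3.45% in E1126G, against 13.3% in WT, in the authors' deposited table, and the log2 change of -2.11 did not pass (adjusted p = 0.58). The pair of P-TEFb cyclins therefore had called exons of opposite direction in R749H and in E1126G on RASL-seq, higher for CCNT1 and lower for CCNT2. In E1126G the CCNT1 call was lost at a threshold of 0.01 and with the Benjamini-Yekutieli adjustment (adjusted p = 0.36), and neither of these E1126G exons reached a minimum difference of 10 percentage points.

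**Figure D2:**
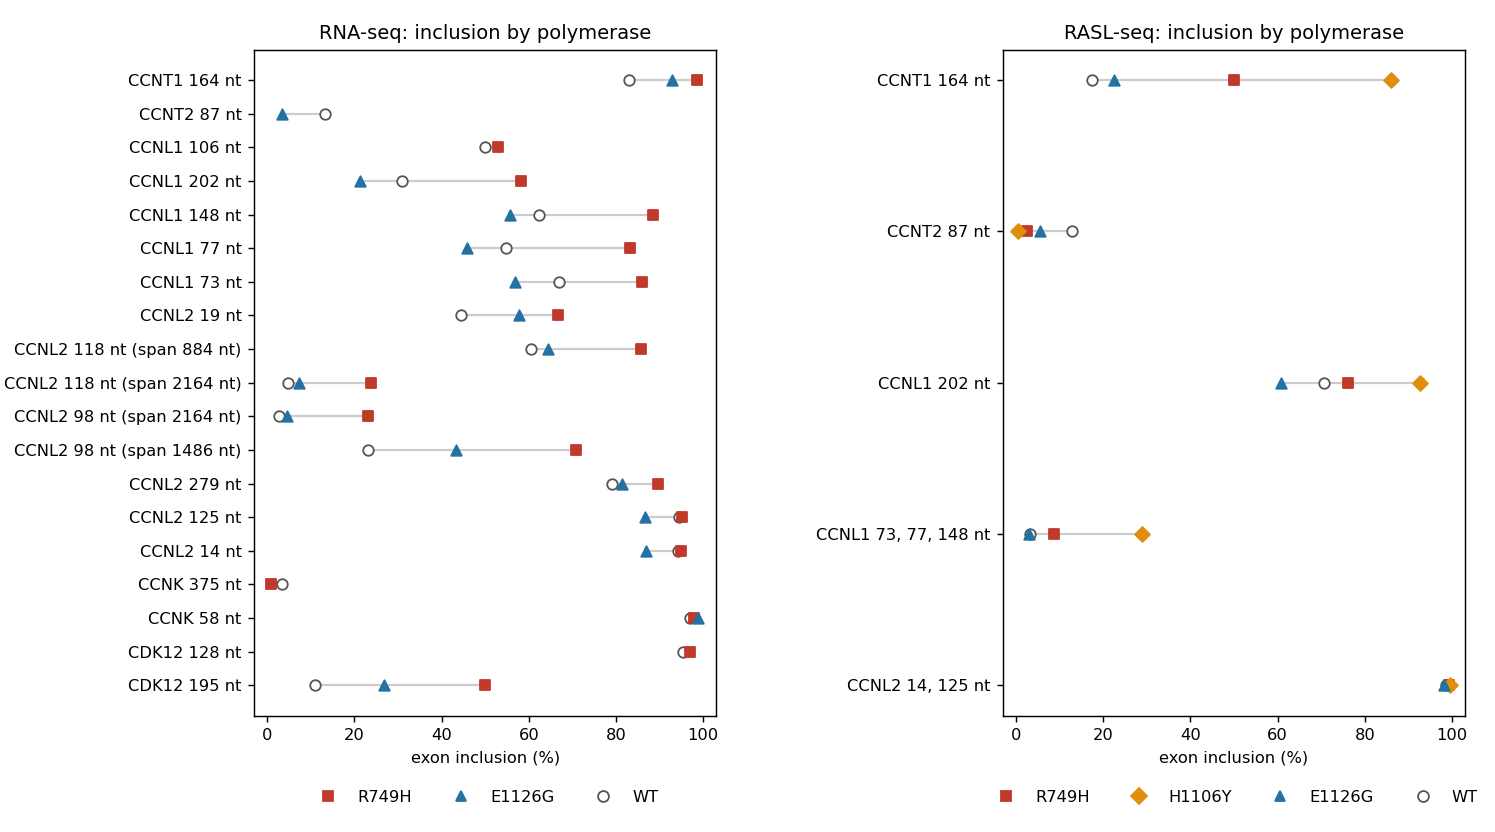
Exon inclusion in percent (horizontal axis) for every exon event in RNA-seq (left) and every distinct RASL-seq measurement (right), with 1 pooled value per polymerase and a line joining the values of an event. On RASL-seq the CCNT1 exon runs to 86.0% in H1106Y, against 17.5% in WT, while in RNA-seq the CCNL1 and CCNL2 exons sit further right in R749H than in WT.

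CCNL1 encodes cyclin L1, and 4 of its 5 exons rose in R749H RNA-seq. The exons fall in 2 places on the minus strand of chromosome 3. The upstream place holds a cassette with 1 start and 3 alternative ends, giving exons of 148 nt (156874725 to 156874872), 77 nt (156874796 to 156874872) and 73 nt (156874800 to 156874872). None of these lengths is a multiple of 3. They share 1 skipped span of 5709 nt, so their rows share the reads that skip the cassette and are not independent.

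Inclusion of the 148-nt form of CCNL1 was 88.5% in R749H and 55.7% in E1126G, against 62.4% in WT, in the authors' deposited table. The 77-nt form stood at 83.1% in R749H and 45.8% in E1126G, against 54.7% in WT, and the 73-nt form at 85.9% in R749H and 56.7% in E1126G, against 66.8% in WT, in the authors' deposited table. In each group the values of the 3 forms are too high to be parts of 1 whole. They therefore do not give the share of transcripts that carry each form. In R749H the log2 changes were 2.21 (adjusted p = 4.0e-08), 2.03 (adjusted p = 2.0e-06) and 1.60 (adjusted p = 1.4e-04) in the authors' deposited table. In E1126G the 3 forms differed from WT by -10.1 to -6.77 percentage points, and none passed (adjusted p of 0.42 to 0.67).

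RASL-seq gave the CCNL1 cassette 1 value for its 3 forms, at the start that they share. It was 8.64% in R749H, 28.9% in H1106Y and 2.90% in E1126G, against 3.13% in WT, in the authors' deposited table. The log2 change was 1.55 in R749H (adjusted p = 1.0e-13) and 3.66 in H1106Y in the authors' deposited table. In E1126G it was -0.11 and did not pass (adjusted p = 0.62), and it turned positive, to 0.26, when measured around the median of that table. Both slow forms were thus called above WT on this cassette, although R749H did not reach a minimum difference of 10 percentage points.

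The downstream place in CCNL1 holds exons of 202 nt (156869518 to 156869719) and 106 nt (156869275 to 156869380), again with lengths that are not multiples of 3. In RNA-seq the 202-nt exon was included at 58.1% in R749H and 21.2% in E1126G, against 31.0% in WT, in the authors' deposited table. It rose in R749H (log2 change 1.63, adjusted p = 0.0056, or 0.057 with the Benjamini-Yekutieli adjustment) and did not pass in E1126G (log2 change -0.74, adjusted p = 0.54) in the authors' deposited table. On RASL-seq this exon stood at 76.1% in R749H, 92.6% in H1106Y and 60.7% in E1126G, against 70.6% in WT, in the authors' deposited table. There the log2 change was 2.37 in H1106Y, and it did not pass in R749H (0.41, adjusted p = 0.64) or in E1126G (-0.64, adjusted p = 0.43). The 106-nt exon had a row in R749H alone, at 52.9% in R749H against 50.0% in WT (log2 change 0.17, adjusted p = 0.95) in the authors' deposited table.

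CCNL2 encodes cyclin L2 and had the largest number of events, 8 exon events and 4 introns on the minus strand of chromosome 1. In R749H RNA-seq 4 of the 8 exon events were called, all higher, and all 4 belong to 2 exons near the downstream end of the tested region. The 98-nt exon (1324330 to 1324427) and the 118-nt exon (1324006 to 1324123) lie 206 nt apart and were each scored over 2 spans, a wide span of 2164 nt that skips both exons and a narrower one. Neither length is a multiple of 3, while their sum, 216 nt, is.

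Over the wide span the 98-nt exon of CCNL2 was included at 23.2% in R749H and 4.58% in E1126G, against 2.70% in WT, in the authors' deposited table. Over the narrower span, bounded by the 118-nt exon, it was included at 70.8% in R749H and 43.2% in E1126G, against 23.1% in WT, in the authors' deposited table. The gain of 47.7 percentage points in R749H ranked 70 of 14358 from the top. The log2 changes in R749H were 3.45 (adjusted p = 8.5e-22) over the wide span and 3.02 (adjusted p = 2.5e-04) over the narrower one in the authors' deposited table. In E1126G they were 0.79 (adjusted p = 0.24) and 1.34 (adjusted p = 0.41) in the authors' deposited table, which did not pass.

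The neighbouring 118-nt exon of CCNL2 showed the same order of values. Over the wide span its inclusion was 23.8% in R749H and 7.26% in E1126G, against 4.74% in WT, and over the narrower span 85.7% in R749H and 64.3% in E1126G, against 60.6% in WT, in the authors' deposited table. In R749H the log2 changes were 2.65 (adjusted p = 7.4e-15) and 1.96 (adjusted p = 0.019), and in E1126G 0.65 (adjusted p = 0.28) and 0.23 (adjusted p = 0.92), in the authors' deposited table. The R749H call over the narrower span was lost at a threshold of 0.01 and with the Benjamini-Yekutieli adjustment (adjusted p = 0.20). A 19-nt microexon just beyond it (1323872 to 1323890) was included at 66.7% in R749H and 57.8% in E1126G, against 44.3% in WT, in the authors' deposited table. That microexon did not pass in R749H (log2 change 1.33, adjusted p = 0.085) or in E1126G (0.78, adjusted p = 0.58).

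**Figure D3:**
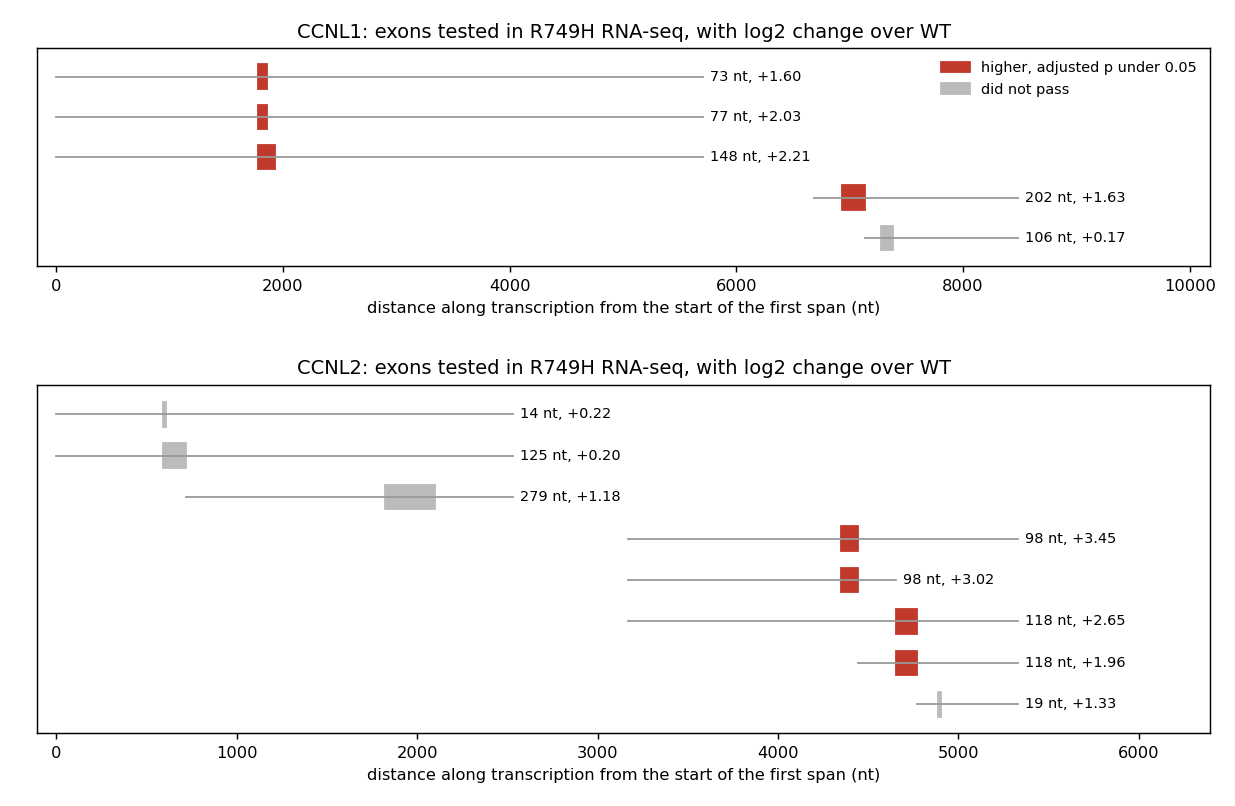
Exons of CCNL1 (upper) and CCNL2 (lower) tested in R749H RNA-seq, drawn to scale along the direction of transcription, with distance in nt from the start of the first span; boxes are exons, lines the spans between flanking exons, and labels give exon length and log2 change over WT. In CCNL2 the 4 called events (red) are the 98-nt and 118-nt exons at the downstream end, with log2 changes of 1.96 to 3.45, and the events at the upstream end (grey) did not pass.

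At the upstream end of the tested CCNL2 region an exon has 1 start and 2 alternative ends, of 125 nt (1328059 to 1328183) and 14 nt (1328170 to 1328183). These were the events called lower in E1126G RNA-seq. Both forms were scored over the same span, so their rows are not independent. Inclusion of the 125-nt form was 95.04% in R749H and 86.7% in E1126G, against 94.3% in WT, and that of the 14-nt form 94.99% in R749H and 86.8% in E1126G, against 94.2% in WT, in the authors' deposited table. The values of the 2 forms are too high to be parts of 1 whole, so they do not give the share of transcripts that carry each form. The log2 changes in E1126G were -1.36 (adjusted p = 0.014) and -1.31 (adjusted p = 0.017), and in R749H 0.20 (adjusted p = 0.84) and 0.22 (adjusted p = 0.82), in the authors' deposited table. The inclusion level stayed high in every group, and E1126G was the lowest of them. Both E1126G calls were lost at a threshold of 0.01, with the Benjamini-Yekutieli adjustment (adjusted p = 0.14 and 0.17) and when at least 10 percentage points were required.

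RASL-seq gave this upstream CCNL2 exon 1 value for both forms, 99.3% in R749H, 99.6% in H1106Y and 98.1% in E1126G, against 98.6% in WT, in the authors' deposited table. The log2 changes were 1.05 in R749H (adjusted p = 7.2e-04), 1.88 in H1106Y and -0.48 in E1126G (adjusted p = 0.017) in the authors' deposited table. The gains were 0.709 percentage points in R749H and 1.001 in H1106Y, and the change in E1126G was -0.535. The E1126G call on RASL-seq was lost at 0.01 and with the Benjamini-Yekutieli adjustment (adjusted p = 0.14), and none of the 3 RASL-seq calls met a minimum of 10 percentage points. A 279-nt exon between the 2 ends of the region (1326677 to 1326955) was included at 89.5% in R749H and 81.5% in E1126G, against 79.0% in WT, in the authors' deposited table. It did not pass in R749H (log2 change 1.18, adjusted p = 0.18) or in E1126G (0.22, adjusted p = 0.91).

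CCNL2 had 4 intron rows, 2 that lie on either side of that 279-nt exon and 2 longer ones that span it. Computed retention was high in all of them, although the 279-nt exon was itself included at 79.0% in WT RNA-seq. How reads were counted is not stated, so these values are not known to be the share of transcripts that keep an intron. Retention was 97.8% to 99.2% in R749H and 97.4% to 98.0% in E1126G, against 96.9% to 98.9% in WT, in the authors' deposited table. In R749H 2 of the 5 introns of the 8 genes were called, both with more retention, against 18.9% of all introns called and 11.9% called higher. These were the spans of 1813 nt (1326246 to 1328058; log2 change 1.21, adjusted p = 0.038) and 1924 nt (1326246 to 1328169; log2 change 1.38, adjusted p = 0.042) in the authors' deposited table. Both calls were lost at a threshold of 0.01 and with the Benjamini-Yekutieli adjustment (adjusted p = 0.32 and 0.36). In E1126G the log2 changes of these 2 spans were 0.65 and -0.14 (adjusted p = 0.42 and 0.91), and neither passed. The 431-nt intron of CCNL2 (1326246 to 1326676), which lies inside both spans, had a log2 change of the opposite sign to theirs in R749H. It was retained at 97.8% in R749H and 97.4% in E1126G, against 98.9% in WT, in the authors' deposited table, and did not pass in R749H (log2 change -1.01, adjusted p = 0.11) or in E1126G (-1.21, adjusted p = 0.085). The 1214-nt intron on the other side of the exon (1326956 to 1328169) was retained at 98.5% in R749H and 97.8% in E1126G, against 97.7% in WT, in the authors' deposited table, and did not pass either (log2 change 0.61 in R749H and 0.083 in E1126G; adjusted p = 0.47 and 0.95). Both called spans contain the 279-nt exon. The 1924-nt span and the 1214-nt intron also contain part of the 125-nt form of the upstream exon (1328059 to 1328183). The sources used here do not say whether reads of these exons were counted as retention. In E1126G 0 of 5 introns were called by the Benjamini-Hochberg adjustment of the authors' p-values, with 1 at an unadjusted p under 0.05, the 431-nt intron with less retention, against 9.18% of all introns called.

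CCNK encodes cyclin K and had no called event. A 58-nt exon on the plus strand of chromosome 14 (99967693 to 99967750) was included at 97.9% in R749H and 98.8% in E1126G, against 96.9% in WT, in the authors' deposited table. Computed retention of the 1335-nt span around it was 73.7% in R749H and 66.7% in E1126G, against 57.7% in WT, in the authors' deposited table. This span contains the exon, and the sources used here do not say whether reads of that exon were counted as retention. Neither the exon (adjusted p = 0.67 in R749H and 0.46 in E1126G) nor the intron (adjusted p = 0.59 in R749H and 0.87 in E1126G) passed. A 375-nt exon (99958283 to 99958657), with a row in R749H alone, was included at 0.847% in R749H against 3.45% in WT (log2 change -2.06, adjusted p = 0.45) in the authors' deposited table. It was the 1 event of the 18 in R749H RNA-seq whose log2 change lay below 0.

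CDK12 encodes a kinase that pairs with cyclin K, and 1 of its exons rose in R749H. The 195-nt exon on the plus strand of chromosome 17 (37713117 to 37713311) has a length that is a multiple of 3. Inclusion was 50.0% in R749H and 26.7% in E1126G, against 10.9% in WT, in the authors' deposited table. The log2 change was 3.04 in R749H (adjusted p = 0.019), where the gain ranked 151 of 14358 from the top, and 1.58 in E1126G (adjusted p = 0.55) in the authors' deposited table. The 128-nt exon ahead of it (37712539 to 37712666) was included at 97.0% in R749H against 95.3% in WT (log2 change 0.65, adjusted p = 0.86) in the authors' deposited table, and had no row in E1126G. CDK12 and CCNK had no RASL-seq row. The call of the 195-nt exon, the only one in CDK12, was lost at a threshold of 0.01 and with the Benjamini-Yekutieli adjustment (adjusted p = 0.19).

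The 17 distinct exons of these genes were 14 to 375 nt long, with a median of 118 nt against 109 nt for the 15189 distinct exons of all tables. Of the 17, 4 had a length that is a multiple of 3 (23.5%), against 43.8% of all exons, which is given as a description with no test. The exons that rose in R749H RNA-seq were CCNT1 164 nt, CCNL1 73, 77, 148 and 202 nt and CCNL2 98 and 118 nt, none of them with a length that is a multiple of 3, and CDK12 195 nt, which is a multiple of 3. The CCNT2 exon that fell on RASL-seq has a length that is a multiple of 3.

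The exons measured by both assays had log2 changes of the same sign in both, except that 3 E1126G rows of CCNL1 differed in sign once each table was centred on its median. The assays used separate libraries, also for WT. In R749H the log2 change had the same sign in RNA-seq and RASL-seq for 7 of 7 events of these genes, which hold 4 distinct RASL-seq values, against 74.0% of the 1648 events of all genes. In E1126G the sign was the same for 8 of 8 events, with 5 distinct RASL-seq values, against 73.7% of 1674. Taken around the median of each table the counts were 7 of 7 in R749H and 5 of 8 in E1126G. Like signs were the rule for events of all genes called in both assays. Before centring, 271 of 276 such events had the same sign in R749H and 177 of 178 in E1126G. Of the events of these genes, 4 of 7 were called in both assays in R749H, in CCNT1 and the CCNL1 cassette. The 3 CCNL1 rows among them share the same RASL-seq value. In E1126G 2 of 8 were called in both, the alternative ends of the upstream CCNL2 exon, which also share the same RASL-seq value. Over all genes 276 of 1648 events were called in both assays in R749H and 178 of 1674 in E1126G.

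**Figure D4:**
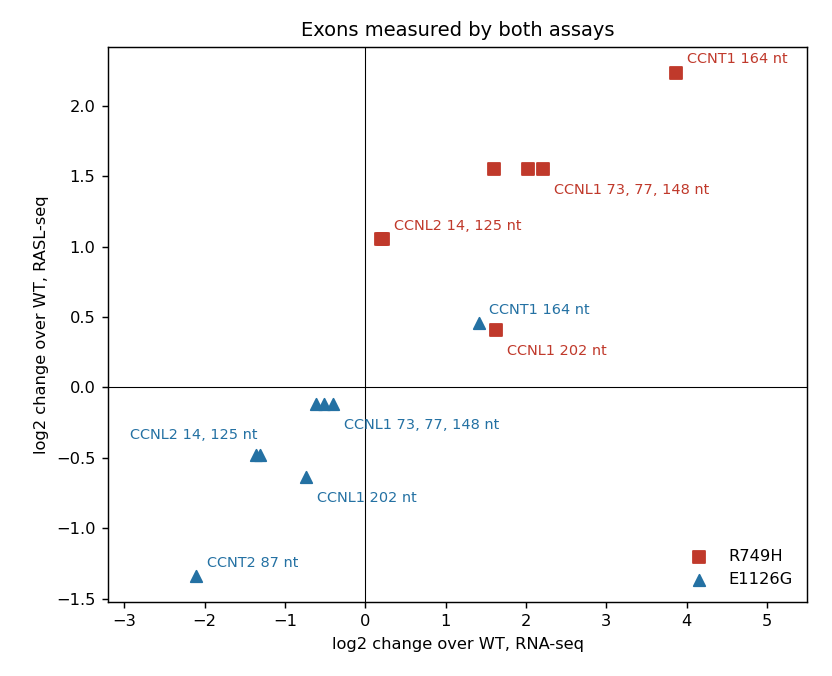
Log2 change over WT in RNA-seq (horizontal axis) and in RASL-seq (vertical axis) for each exon event measured by both assays, in R749H (squares) and E1126G (triangles). All 7 R749H events lie in the upper right; of the 8 E1126G events the CCNT1 exon alone does, at 1.41 and 0.46, and the 3 CCNL1 rows just below 0 turn positive in RASL-seq around the median of that table.

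The levels differed widely between the assays. In WT the CCNT1 exon was included at 83.0% in RNA-seq and at 17.5% on RASL-seq, and the CCNL1 cassette at 54.7% to 66.8% in RNA-seq and at 3.13% on RASL-seq, in the authors' deposited table. The CCNL1 202-nt exon went against that order, at 31.0% in WT in RNA-seq and 70.6% on RASL-seq in the authors' deposited table. The CCNT2 exon, at 13.3% in WT in RNA-seq and 12.8% on RASL-seq, was close. Inclusion levels are therefore compared within an assay only.

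Other genes of the same machinery are given beside these changes. Their counts, like those of the lists below, are to be read against the share of all events called in each comparison, given above. Of 46 listed partners in pause release and elongation, 45 had an identifier and 28 had rows in R749H RNA-seq, where 3 of 48 events were called higher and 3 lower. In E1126G RNA-seq 1 of 47 events was called higher and 1 lower. An exon of RPRD2, which binds the polymerase tail, fell in both mutants, to 25.8% in R749H and 30.0% in E1126G, against 74.0% in WT, in the authors' deposited table. In EAF2, a partner of the elongation factor ELL, an exon fell to 30.2% in R749H, against 83.3% in WT, in the authors' deposited table. On RASL-seq 2 of 8 events were called higher and 1 lower in R749H, 3 of 7 higher and 2 lower in H1106Y, and 0 of 8 higher and 5 lower in E1126G.

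Among those partners AFF4, the scaffold of the super elongation complex, had an 87-nt exon that, like the upstream CCNL2 exon on RASL-seq, was above WT in both slow mutants and below WT in E1126G. Its inclusion was 98.5% in R749H, 98.4% in H1106Y and 89.2% in E1126G, against 94.0% in WT, in the authors' deposited table, and it was called in each.

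The other transcription kinases with their cyclins and Mediator partners, 14 genes, had 4 of 24 events called in R749H RNA-seq (2 higher, 2 lower). In E1126G RNA-seq 0 of 24 were called after Benjamini-Hochberg adjustment, and 3 had an unadjusted p under 0.05 in the authors' deposited table. On RASL-seq 5 of 6 rows were called in R749H (2 higher, 3 lower), 4 of 6 in H1106Y (2 higher, 2 lower) and 2 of 6 in E1126G (both lower). CCNC, the cyclin of the Mediator kinases, had a cassette of 95 and 68 nt in RNA-seq, and the 95-nt form was included at 54.5% in R749H, against 22.9% in WT, in the authors' deposited table. On RASL-seq that CCNC cassette stood at 15.2% in R749H and 53.1% in H1106Y, against 6.94% in WT, in the authors' deposited table. Both CCNC forms share these values, so the 2 rows called higher in R749H and in H1106Y are 1 measurement. CDK8, the partner of CCNC, had a 144-nt exon that fell to 89.1% in R749H, 58.9% in H1106Y and 95.6% in E1126G, against 98.4% in WT, in the authors' deposited table.

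Cyclins and kinases known from the cell cycle and elsewhere, 23 genes, had 3 of 34 events called in R749H RNA-seq (1 higher, 2 lower) and 3 of 33 in E1126G RNA-seq, all lower. The 3 called events in R749H were all in CDK16, a kinase of the PCTAIRE group, whose 82-nt exon fell to 5.63% in R749H and 14.3% in E1126G, against 39.8% in WT, in the authors' deposited table. On RASL-seq 2 of 3 rows were called in each mutant, all higher except 1 of those in H1106Y. A 216-nt exon of CCND3, the cyclin D3 gene, rose to 79.5% in E1126G, against 56.6% in WT, in the authors' deposited table. The median log2 change in R749H RNA-seq was 0.066 for the elongation partners, 0.12 for the other transcription kinases and 0.11 for the cell cycle list, against 1.61 for the 18 events of the 8 genes and -0.0048 over all events. Because the 8 genes were chosen with results of these data in view, this difference is a description and was not tested.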

How the data were processed

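Splicing events were taken from 7 tables that compare a mutant with WT, 5 of exons and 2 of introns. Tables named with a code are listed in the R749H samples' labels and were taken as R749H. Each row of the authors' deposited tables gives the natural log of the WT ratio, the log2 change in the mutant and a p-value that is not adjusted. Per the labels' protocols RNA-seq reads were mapped with TopHat 1.4.1, library by library, and the submitters' processing notes name Bowtie 0.12.7, edgeR 3.7.17 and GRCh37. How reads were counted, which events were filtered and which test gave the p-value is not stated in the sources used, and depth is unknown. Log bases were checked: read as natural logs, 32.1% to 72.8% of WT values gave whole-number ratios (denominators to 300, tolerance 1e-09), against at most 0.3% in base 2.

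Inclusion was computed as 100 times the ratio over 1 plus the ratio, and p-values were adjusted genome-wide (Benjamini-Hochberg, each table as a whole; Python 3.11.15, pandas 2.3.3). The adjustment was tested on simulated data. The genes, lists and tests were chosen with earlier results of these data known. All events of the 8 genes are named; of the other lists, called events among the 4 of largest change per comparison. Events of 1 listed gene that met this rule are not reported here. Identifiers were matched to symbols by a name table. No annotation of GRCh37 was used, so an intron 778 nt beyond the last CCNK row was not counted. The 16 GRO-seq samples are not analysed here. The alternatives were other thresholds, another adjustment, filters on WT inclusion or size of change, events counted once, and direction around the median.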

Additional observations from a re-analysis of the deposited data

How the results depend on the processing

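No paired analysis was possible because the tables hold no value per library, and for the same reason no replicate could be left out. The number of called events moved by over 1.5 times under these alternatives. At a threshold of 0.01, and likewise with the Benjamini-Yekutieli adjustment, it was 0 in E1126G RNA-seq exons, 1 in E1126G RASL-seq and 0 in R749H introns. At a threshold of 0.1 it was 1 in E1126G introns. With WT inclusion of 5% to 95% it was 2 in R749H RASL-seq, 3 in H1106Y, 2 in E1126G RASL-seq and 0 in R749H introns, because 3 of the 8 RASL-seq rows and 1 of the 5 introns lie in that range. With a change of at least 10 percentage points it was 2 in R749H RASL-seq, and 0 in E1126G RNA-seq exons, E1126G RASL-seq and R749H introns. With identical values counted once, an alternative chosen after seeing the data, it was 4 in R749H RASL-seq and 5 in H1106Y. In R749H RNA-seq exons the count stayed within 1.5 times of 10 throughout. Around the median change of the table, the CCNL1 cassette in E1126G RASL-seq turned to 0.26, and no other event changed sign. Of the single events, 9 lost their call at 0.01, 10 with the Benjamini-Yekutieli adjustment and 15 with at least 10 percentage points, and 2 gained one at 0.1. Depth is unknown, so no limit of detection can be given.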
